A study of Mus musculus with 6 samples.

Results

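The aquaporins are the channel proteins through which water, and in some members glycerol and other small solutes, crosses cell membranes. The members described here are Aqp1, Aqp2, Aqp3, Aqp4, Aqp5, Aqp6, Aqp7 and Aqp11, which were chosen by symbol in the gene annotation of both count matrices, 8 genes of the 31053 listed. In the kidney the channels are distributed along the nephron by segment. Aqp1 lines the proximal tubule, the descending thin limb and the descending vasa recta, while vasopressin moves Aqp2 to the apical membrane of collecting duct principal cells, from which water leaves through Aqp3 and Aqp4 on the basolateral side. Aqp5 is the apical water channel of many glands.

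The study tested a microfluidic platform that digests, dissociates and filters minced tissue, and asked which cells it released compared with a conventional digest. Kidneys came from C57BL/6 mice (male, 12 weeks old) and mammary tumors from MMTV-PyMT mice (female, 10 weeks old), a transgenic line in which a mouse mammary tumor virus promoter drives the polyoma middle T antigen in the mammary epithelium. For each tissue there was 1 droplet single-cell library from a 60 min control digest, 1 from the 15 min platform interval and 1 from the 60 min platform interval, which was collected after the first interval had been removed. In all 6 libraries the tissue was minced and digested with type I collagenase, red cells were lysed, and dead cells were removed by sorting on SytoxBlue. Since each condition had 1 library, nothing between conditions could be tested, cells were not used as replicates, and the values describe these libraries. By the study's reporting, all conditions of a tissue were prepared from the same source mouse, and the spread between animals was not measured. Both platform libraries of a tissue were compared with the same control library.

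Levels are given as CPM, the unique molecular identifiers (UMIs, 1 per captured RNA molecule) of a gene per 1000000 UMIs of the library or cell class. The reads came from transcript ends, so CPM was not divided by gene length, and levels are compared between genes only as captured molecules. Brackets hold 95% intervals, exact Poisson for CPM, exact binomial for shares of cells and exact conditional binomial for ratios, and all of them cover counting error only. Cell classes were defined in each cell by at least 3 detected genes of a marker list that held no aquaporin, and class names below stand for cells "like" that type by these markers. The split of intercalated cells into type A and type B was looser. It went by the type list with more detected markers, so a lead of 1 marker was enough. In each class with its own marker list and at least 20 cells, all listed markers were over 1.5 times as high as in the other cells. The same markers had placed the cells, so this was largely fixed by the gate and does not test the class names. Values in triplets are given in the order control, 15 min interval, 60 min interval. Total depth was 69691783, 116998401 and 112969440 UMIs in kidney and 90414805, 101222030 and 97006183 in the tumor. The kept kidney cells numbered 5886, 8390 and 9936, and their median share of mitochondrial UMIs was 7.38, 20.4 and 8.59%, so the 15 min library stood apart. A barcode sequence occurred in more than 1 library in 309 cases in kidney and 57 in the tumor, and no class level moved beyond its counting interval when these cells were left out.

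Each member with a substantial count was concentrated in 1 or a few classes. Aqp2, Aqp3 and Aqp4 had their highest kidney level in principal cells, Aqp6 in intercalated type A cells, Aqp1 in vasa recta endothelium and thin limb, and Aqp7 in the proximal tubule. Aqp11 had its highest levels in the vasa recta endothelium and the proximal tubule. In the tumor, Aqp5 was the aquaporin of the epithelial cells and Aqp1 that of the endothelium, and Aqp2 UMIs lay mainly in fibroblasts.

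**Figure D1:**
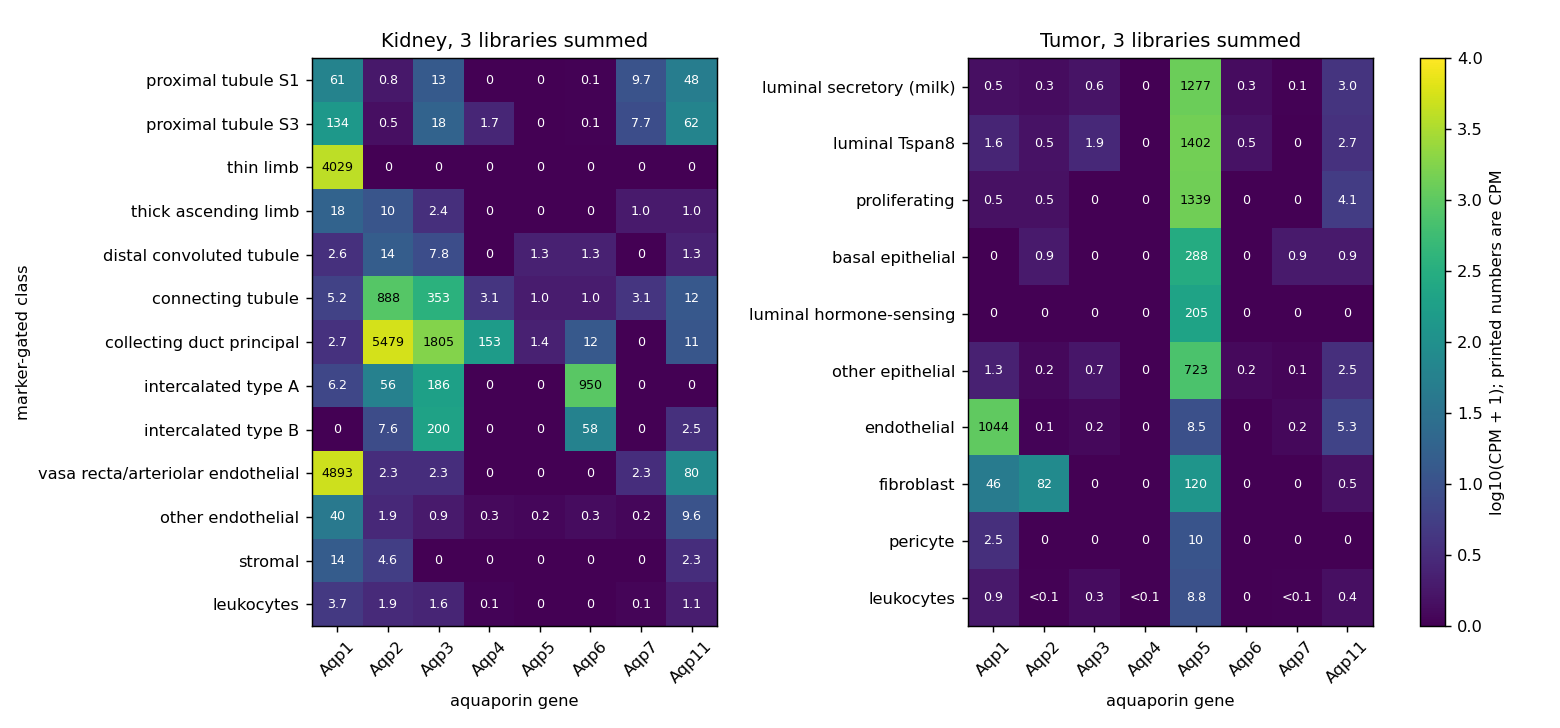
Level of each aquaporin in each marker-gated class of kidney (left) and tumor (right) with the 3 libraries of a tissue summed; rows are classes, columns are genes, printed numbers are CPM and colour is log10(CPM + 1). Aqp2 reached 5479 CPM in principal cells, Aqp1 4893 in vasa recta and arteriolar endothelium and Aqp5 1402 in Tspan8-marked luminal tumor cells.

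Aqp2 and Aqp3, channels of the collecting duct, had a RefSeq promoter window whose following bases occurred in an annotated transcript of the gene. These windows are shown because both genes were highest in the same cells. Coordinates are on GRCm38, the build the files used (RefSeq sequence GRCm38.p6), and each line ends at the base before the start site. The Aqp2 window is chr15:99578806-99579054 on the plus strand and the Aqp3 window chr4:41098184-41098433 on the minus strand. Capitals mark matches on either strand to a motif searched. The motifs were TATAAA (the TATA box), then TGACG (the core of a cAMP response element), then GATAA (bound by GATA factors), and last TGGAAA (found in tonicity response elements).
Aqp2: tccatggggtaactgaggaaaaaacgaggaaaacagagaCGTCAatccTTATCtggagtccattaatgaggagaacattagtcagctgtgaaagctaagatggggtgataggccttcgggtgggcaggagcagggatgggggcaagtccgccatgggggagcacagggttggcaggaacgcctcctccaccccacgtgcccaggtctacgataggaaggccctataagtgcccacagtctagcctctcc
Aqp3: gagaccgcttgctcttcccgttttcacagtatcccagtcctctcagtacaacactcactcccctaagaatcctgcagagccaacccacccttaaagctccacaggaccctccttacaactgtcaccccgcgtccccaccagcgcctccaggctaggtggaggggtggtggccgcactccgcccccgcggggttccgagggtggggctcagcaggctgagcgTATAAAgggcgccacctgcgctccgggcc
The Aqp2 window held 1 match to TGACG, read on the other strand, 210 bases before the start. It also held 1 match to GATAA, on the other strand as well, 201 bases before the start. The Aqp3 window held only a TATAAA, 29 bases before the start. Distances run from the first base of a match to the start site. Of 32851 RefSeq promoter windows, 17.8% held TGACG and 22.6% held GATAA, while 12.4% held TATAAA and 18.6% held TGGAAA, so each of these matches is common. A match is a string of letters in this window and was not tested as a site. The motifs shared by the pair numbered 0. Since each motif occurred in at most 22.6% of windows, this count says little about the pair.

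Aqp2 (ENSMUSG00000023013) is the channel that vasopressin regulates. It was at 5479 CPM (5311 to 5652) in the 169 principal cells, and 162 of them (95.9%) held an Aqp2 UMI. The level was 6994 CPM in the 69 control cells, 3569 in the 4 cells of the 15 min library and 4556 in the 96 cells of the 60 min library. The control and 60 min libraries had at least 20 of these cells and were set against each other, and the 60 min level was the lower, at 0.651 times the control (0.612 to 0.693). At 15 min the cells had a median of 615.5 UMIs and held 9 Aqp2 UMIs in total. When cells above the upper gene limit were added, 219 principal cells gave 6745 CPM in the control and 5330 at 60 min, so the order of these libraries did not change.

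The connecting tubule, the segment before the collecting duct, followed with 888 CPM of Aqp2 (829 to 950) over 261 cells. Its libraries held 1042, 1686 and 772 CPM, with 11 cells at 15 min. Intercalated type A cells were at 55.9 CPM on 9 UMIs, and the proximal tubule at 0.632. Kidney leukocytes, which should lack the channel, were at 1.95 CPM, and 1.07% of them held an Aqp2 UMI at a median of 5092 UMIs per cell. Thinned to 1000 UMIs per cell, 90.3% of 155 principal cells held Aqp2 and 0.235% of 4263 leukocytes, with 14 and 51 shallower cells left out. The share in principal cells was therefore far over that in leukocytes, which were read as the free-RNA level. Free RNA was not measured directly.

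Aqp3 (ENSMUSG00000028435), the basolateral channel of the same cells, which also carries glycerol, was at 1805 CPM (1708 to 1905) in principal cells and 91.7% of them held a UMI. The libraries were at 1883, 1190 and 1760 CPM, the 15 min value resting on 3 UMIs. The 60 min level was 0.935 times the control (0.836 to 1.05), an interval that includes 1. Like Aqp2, Aqp3 continued into the connecting tubule, at 353 CPM against 888 for Aqp2. In intercalated cells Aqp3 was at 200 CPM in type B and 186 in type A, where Aqp2 was at 55.9. The intervals of the intercalated types overlapped (158 to 249 and 126 to 266). In the proximal tubule Aqp3 was at 15.5 CPM, 17.98 in S3 and 12.6 in S1 cells, against 1.58 in leukocytes. Because of their number, the 12478 proximal tubule cells held 41.1% of the Aqp3 UMIs of all kept kidney cells and the principal cells 38.0%.

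Aqp4 (ENSMUSG00000024411), the second basolateral channel, was lower and more uneven. Principal cells held 112 UMIs at 153 CPM (126 to 184), in 28 of 169 cells, and the 10 cells with the most held 79.5% of them. At a mitochondrial limit of 25% the level was 254 CPM. The control library held 81 UMIs (292 CPM), the 15 min library 0 in 4 cells, and the 60 min library 31 (68.8 CPM), which was 0.236 times the control (0.151 to 0.361). In the control, 10 cells carried 93.8% of the UMIs, so this ratio rests on a few cells. Adding the cells above the gene limit left 279 CPM in the control and 65.3 at 60 min.

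The 3 channels were found in the same principal cells. Of the 169, 152 held both Aqp2 and Aqp3, and all 28 cells with Aqp4 also held Aqp2, while 27 of them held Aqp3. Outside the collecting duct, Aqp4 was found in S3 cells, the late proximal tubule, at 1.66 CPM (1.34 to 2.04). There it had 91 UMIs in 36 cells of 6994, 13 of which had at least 3 UMIs, with 10 as the highest. None of the 36 held an Aqp2 UMI, and 12 held any principal cell marker. In the 4660 S1 cells, the early segment, Aqp4 had 0 UMIs, which allows a share of up to 0.0644% of cells with a UMI.

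Aqp6 (ENSMUSG00000043144), a channel of intracellular vesicles of acid-secreting intercalated cells, was at 950 CPM (806 to 1113) in 30 type A cells, and 26 of them (86.7%) held a UMI. The libraries were at 1006, 1125 and 861 CPM from 15, 2 and 13 cells, and the intervals of the control and 60 min libraries overlapped. Type B cells, which secrete bicarbonate, were at 58.2 CPM (36.9 to 87.3) over 60 cells and principal cells at 12.3. Over all 106 intercalated cells the level was 404, 128 and 308 CPM, and the 60 min to control ratio of 0.761 (0.556 to 1.04) includes 1. Without the upper gene limit the control was at 271 and the 60 min library at 347 CPM, so this order turned with the limit. Aqp3 and Aqp6 were found together in 15 of 30 type A cells, which were all the type A cells with Aqp3.

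Aqp1 (ENSMUSG00000004655), the constitutive water channel, was highest in endothelium of the vasa recta and arterioles, the vessels that run into the medulla and feed the glomeruli. The 91 cells of this class, 17, 10 and 64 by library, were at 4893 CPM (4687 to 5105), or 4347, 6947 and 4765 by library. A gate of 1 marker fewer gave 3588 CPM and a gate of 1 more gave 8199. Thin limb cells followed with 4029 CPM (3794 to 4274) over 50 cells, and 3278, 2151 and 4702 by library from 15, 4 and 31 cells. At 60 min the intervals of these 2 classes overlapped (4522 to 5019 and 4373 to 5050). An Aqp1 UMI was found in 60.4% of the vasa recta cells and 76% of the thin limb cells. After thinning to 1000 UMIs these shares were 52.7 and 72%, against 0.375% in leukocytes.

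Proximal tubule cells were at 103 CPM of Aqp1, or 83.9, 110 and 104 by library, and S3 was above S1 in every library (109, 135 and 164 against 54.7, 65.0 and 56.8). Within the proximal tubule 1385 cells (11.1%) lay within 0.1 of the line between the segments, so S1 and S3 are ends of a range. Kept cells held 46.1% of all kidney Aqp1 UMIs and cells above the gene limit 53.0%, so the shares that follow describe kept cells only. Although their level was low, proximal tubule cells held 66.4% of the kept kidney Aqp1 UMIs, vasa recta cells 14.9% and thin limb cells 7.71%. Another 362 UMIs (74.9 CPM) lay in 1707 cells that passed no gate.

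Within the kidney endothelium Aqp1 followed the number of vasa recta and arteriolar markers in a cell. Cells with 0 of these markers were at 5.72 CPM, close to the 3.69 of leukocytes, and cells with 1 were at 18.6. The level was 793 CPM with 2 markers, 1603 with 3 and 7857 with 4 or more, and the share of cells with a UMI was 2.01, 3.13, 24.1, 40.0 and 80.4% in this order. Median depth differed little between these steps (3601.5 to 4568 UMIs). The order held in the control and 60 min libraries, while at 15 min the 11 cells with 2 markers held 0 UMIs, which allows up to 3 UMIs. The remaining 3082 endothelial cells were at 40.4 CPM, and 10 cells held 71.2% of their Aqp1 UMIs. Clustering without aquaporin genes gave 1 endothelial cluster of 188 cells at 3297 CPM, and the other 6 endothelial clusters lay between 6.86 and 155.

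**Figure D2:**
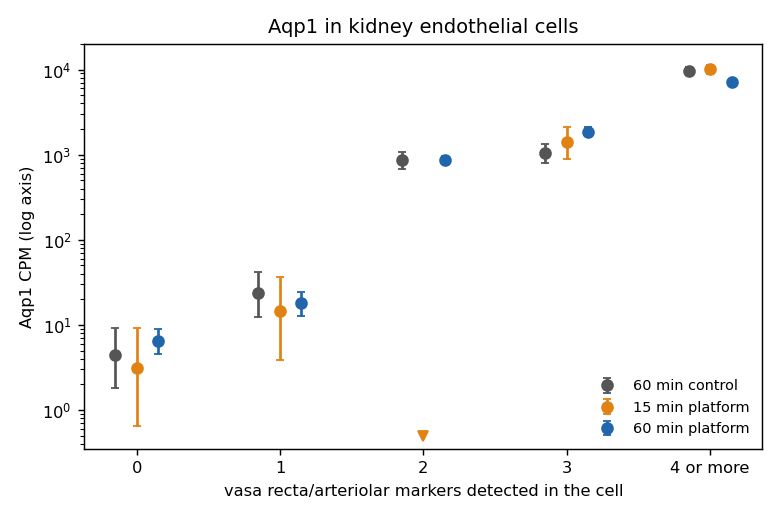
Aqp1 level (CPM, log axis) in kidney endothelial cells grouped by how many vasa recta or arteriolar markers a cell held, for the 3 libraries, with exact Poisson 95% bars that cover counting error only. The triangle marks 0 UMIs in 11 cells at 15 min; levels run from 5.72 CPM at 0 markers to 7857 at 4 or more over all libraries.

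Aqp11 (ENSMUSG00000042797), an intracellular aquaporin whose loss causes cysts of the proximal tubule in mice, was at 55.4 CPM in the proximal tubule, with 42.5, 61.9 and 48.4 by library. S3 was at 61.9 CPM (59.8 to 64.0) and S1 at 48.4 (46.1 to 50.8), and S3 was above S1 in each library (46.6, 67.3 and 58.6 against 42.0, 53.1 and 42.2), with overlapping intervals in the control. Proximal tubule cells held 93.1% of the kept Aqp11 UMIs. The vasa recta endothelium was at 80.4 CPM (56.0 to 112) on 35 UMIs, against 9.64 (7.96 to 11.6) in other endothelial cells and 1.12 in leukocytes. Its interval overlapped that of S3 cells. With the libraries summed, the level was higher in endothelial cells with more of these markers, as for Aqp1, from 7.75 CPM with 0 to 109 with 4 or more. The order held at 60 min but not in the control, at 7.68 CPM with 0 markers and 3.99 with 1. At 15 min the cells with 2 or 3 markers were at 0 CPM. Of the 25 vasa recta cells with Aqp11, 20 also held Aqp1.

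Aqp7 (ENSMUSG00000028427), a glycerol and water channel of the proximal brush border, was at 8.27 CPM (7.70 to 8.88) in the proximal tubule. The libraries were at 6.32, 8.33 and 10.1 CPM, and 93.7% of the kept UMIs lay in proximal tubule cells. S1 was at 9.68 CPM (8.66 to 10.8) and S3 at 7.68 (6.97 to 8.45). The order of the segments was not the same in each library, with S1 at 8.74, 10.0 and 9.59 and S3 at 5.81, 7.43 and 11.3 CPM. Per cell it was sparse, since 5.59% of proximal tubule cells held a UMI.

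Aqp5 (ENSMUSG00000044217) was almost absent from kidney, with 8, 1 and 8 UMIs in the whole libraries. In the tumor it was the most abundant member. Epithelial cells were at 1116 CPM (1110 to 1123), with 1126, 1273 and 848 by library, and held 97.1% of the kept Aqp5 UMIs. A UMI was found in 78.4% of the 9811 epithelial cells and in 7.86% of leukocytes, at median depths of 9203 and 9724.5 UMIs. Thinned to 1000 UMIs the shares were 41.7 and 0.919%, with 91 and 56 shallower cells left out. Leukocytes at 8.77 CPM were read as the free-RNA level, which was not measured directly. Most of them were macrophages (8.30), and endothelial cells (8.51) lay beside this level.

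Tumor epithelial cells differed in Aqp5 by subtype. A cell could pass several subtype gates and was then counted in each, so these groups share cells and are not independent. Luminal cells with Tspan8 and related markers were at 1402 CPM (1364 to 1441), proliferating cells at 1339 (1288 to 1391) and milk-secretory cells at 1277 (1268 to 1285). The intervals of the first pair overlap. Cells with no further subtype were at 723 CPM, basal cells at 288 (257 to 322) and hormone-sensing cells at 205 (151 to 273), the last resting on 27 cells and overlapping the basal interval. The basal level was uneven at 733, 221 and 231 CPM, with 11 cells in the control. In milk-secretory cells the libraries were at 1284, 1389 and 1047 CPM, an order also seen over all epithelial cells.

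Tumor endothelium carried Aqp1 at 1044 CPM (1024 to 1065) over 1291 cells, 88.9% of the kept tumor Aqp1 UMIs. The libraries were at 677, 1083 and 1131 CPM, and an Aqp1 UMI was found in 78.3% of cells and, thinned, in 47.5%, against 0.0896% of thinned leukocytes. Both platform levels were over the control, by 1.60 times (1.48 to 1.72) at 15 min and 1.67 times (1.57 to 1.78) at 60 min. Median depth of these cells moved with it, at 4394, 7271 and 7998.5 UMIs, and its part in the result was not tested. Fibroblasts were at 45.9 CPM and leukocytes at 0.894.

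In the tumor 322 of the 383 kept Aqp2 UMIs (84.1%) lay in 388 fibroblasts, at 81.7 CPM (73.0 to 91.2). By library there were 2 UMIs in 34 cells, 0 in 64 cells and 320 in 290 cells, so the level was 6.29 CPM (0.762 to 22.7) in the control, under 5.81 at the limit of 3 UMIs at 15 min, and 103 (92.1 to 115) at 60 min. An Aqp2 UMI was found in 69 fibroblasts, 67 of them from the 60 min library, 30 had at least 3 and the highest had 51. The barcode of 1 of them also occurred in a kidney library. Thinned to 1000 UMIs, 5.35% of 374 fibroblasts held Aqp2 and 0 of 4462 leukocytes did. Tumor epithelial cells were at 0.307 CPM and leukocytes at 0.0458.

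The collecting duct genes examined were at or near 0 in the fibroblasts with Aqp2. Those with an Aqp2 UMI had 0 UMIs of Avpr2, the vasopressin receptor, and of Scnn1b and Scnn1g, subunits of the epithelial sodium channel. Hsd11b2, a collecting duct gene used in the gates, was at 1.20 CPM there and 1.29 in fibroblasts without an Aqp2 UMI. Of the 3 genes most like Aqp2 across tumor classes, Msc, a transcription factor, was at 284 CPM with and 59.8 without an Aqp2 UMI. Lgi2 was at 10.8 and 80.8 CPM and Tspan11 at 72.1 and 71.8. Msc was thus higher beside Aqp2, Lgi2 lower and Tspan11 at nearly the same level. Of the 69 fibroblasts with an Aqp2 UMI, 67 came from the 60 min library, while those without came from every library. Library and Aqp2 status are therefore mixed in these comparisons. Median depth was 13031 UMIs in fibroblasts with an Aqp2 UMI and 9786 in those without. Over all deposited cells, including those above the gene limit, the tumor held 1098 Aqp2 UMIs, and 939 of them (85.5%) were in 879 fibroblasts. In that count the control held 37 in 103, the 15 min library 72 in 133 and the 60 min library 830 in 643 fibroblasts. These were 20.4, 39.1 and 75.3 CPM, so the gap in CPM between libraries was smaller than among kept cells. The UMIs lay in 7, 4 and 165 of these fibroblasts, so the control and 15 min levels rest on few cells. Clustering divided the fibroblasts into a cluster of 275 cells with 349 UMIs (130 CPM) and another of 145 cells with 0.

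Aqp5 was also over the background in fibroblasts, at 120 CPM (109 to 131), and 47.2, 25.2 and 143 by library. It was at 222 CPM in the 69 fibroblasts with an Aqp2 UMI, 46 of which (66.7%) held it. In the 319 without, it was at 92.3 CPM and 24.5% held it. Within the 60 min library alone the levels were 221 CPM with an Aqp2 UMI and 115 without. Epithelial RNA was followed by the keratin Krt8. In the 60 min library epithelial cells held 0.458 Aqp5 UMIs per Krt8 UMI (0.451 to 0.466), macrophages 0.271 (0.201 to 0.363) and endothelial cells 0.333 (0.201 to 0.536). Fibroblasts without an Aqp2 UMI held 6.41 (4.60 to 9.15) and those with one 30.2 (13.6 to 83.3), from 181 Aqp5 and 6 Krt8 UMIs. The Aqp5 to Krt8 ratio of both fibroblast groups was above that of macrophages and endothelial cells, the highest resting on 6 Krt8 UMIs. Over all libraries the milk protein gene Csn3 was at 63.7 CPM in fibroblasts with an Aqp2 UMI and 118 in those without. Where the fibroblast Aqp5 UMIs came from was not tested. Krt8 is a marker of the epithelial gate, which cells called fibroblasts, macrophages or endothelial cells did not pass. The part of that choice in the ratios was not tested.

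**Figure D3:**
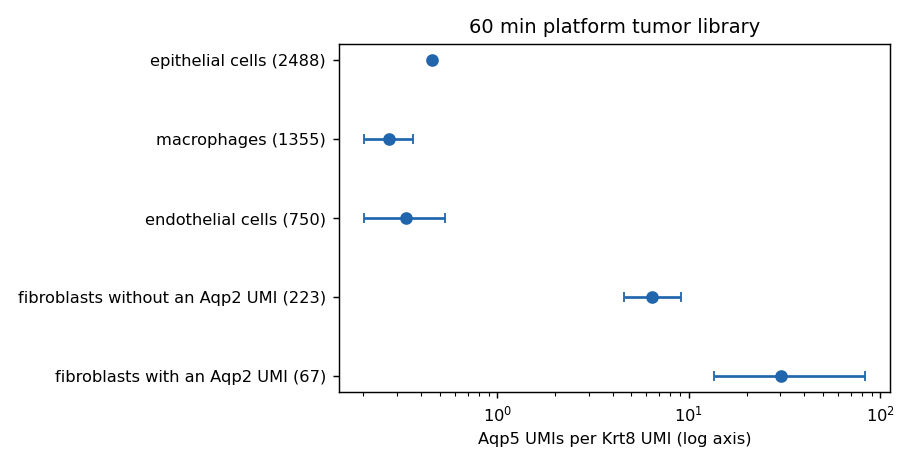
Aqp5 UMIs per Krt8 UMI (log axis) in classes of the 60 min tumor library, with the number of cells in brackets and exact 95% bars that cover counting error only. Epithelial cells, macrophages and endothelial cells lie between 0.271 and 0.458, and both fibroblast groups lie above 6.

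The other members were scarce in the tumor. Aqp11 was at 2.86 CPM in epithelial cells (2.35, 3.41 and 2.61 by library) and 5.32 (3.95 to 7.01) in endothelium, against 0.435 in leukocytes. Aqp3 had 47, 4 and 13 UMIs in epithelial cells, 1.51, 0.102 and 0.539 CPM, and 10 milk-secretory cells held 65.1% of the UMIs of that subtype. Aqp6 was at 0.317 CPM on 30 UMIs in epithelial cells, Aqp7 at 0.0846 on 8, and Aqp4 had 4 UMIs in all 3 tumor libraries.

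Across whole libraries, all deposited cells included, the kidney members differed in which library held the most. A whole-library level mixes how many cells of a class were recovered with the level in each. Within a class the recovery of that class no longer enters, but its mix of subtypes can still differ between libraries. Aqp2 was at 93.6, 2.95 and 84.7 CPM in the control, 15 min and 60 min kidney libraries (6524, 345 and 9574 UMIs). Aqp3 was at 41.2, 18.1 and 44.4, Aqp4 at 4.78, 0.530 and 2.37, and Aqp6 at 6.10, 1.38 and 7.90 CPM. These 4, each with its highest class level in principal or intercalated cells, were lowest at 15 min. Their UMIs also came from other classes, since the proximal tubule held 41.1% of the kept Aqp3 UMIs and 91 of the 235 of Aqp4. At 15 min it held 45 of 49 kept Aqp4 UMIs and the principal cells 0. Aqp7 was at 3.69, 8.03 and 4.97 and Aqp11 at 26.7, 56.8 and 26.0 CPM, both highest at 15 min, while Aqp1, carried by vessels, thin limb and proximal tubule, was at 90.0, 101 and 114.

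**Figure D4:**
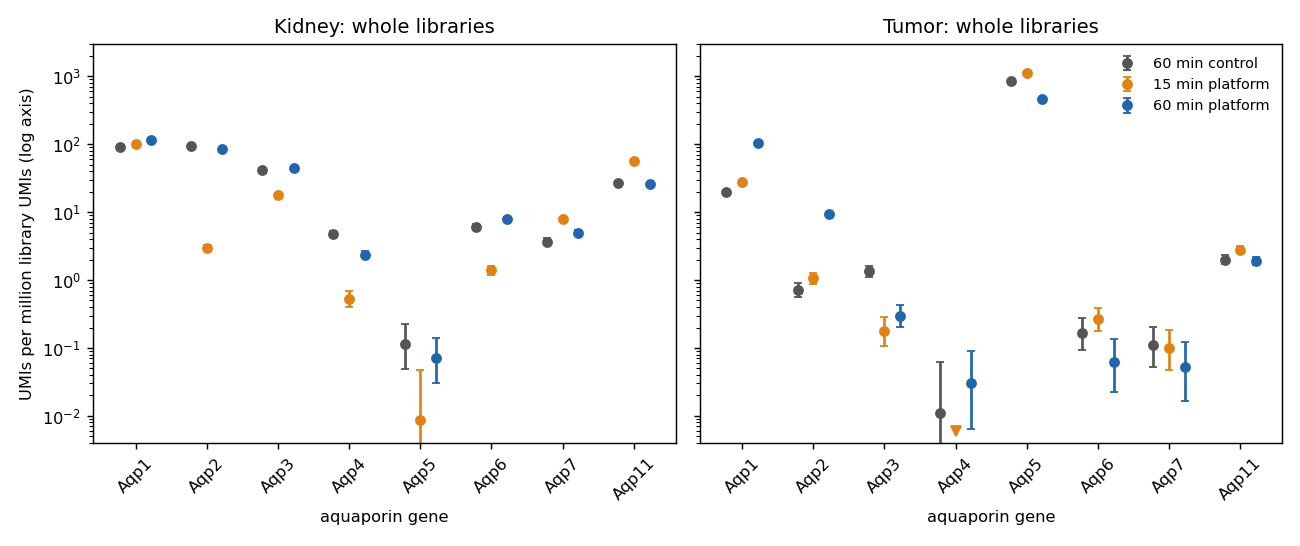
Level of each aquaporin (CPM, log axis) in the 3 whole kidney libraries (left) and tumor libraries (right), with exact Poisson 95% bars that cover counting error only; the triangle marks 0 UMIs. In kidney, Aqp2 lies at 93.6 CPM in the control and 2.95 at 15 min, and in the tumor Aqp5 lies above every other member.

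At 15 min the kidney ratio to the control was 0.0315 for Aqp2 (0.0282 to 0.0351), 0.111 for Aqp4 (0.0832 to 0.146), 0.227 for Aqp6 (0.188 to 0.273) and 0.438 for Aqp3 (0.414 to 0.464). It was 2.18 for Aqp7 (1.89 to 2.51), 2.13 for Aqp11 (2.02 to 2.24) and 1.12 for Aqp1 (1.09 to 1.16). Of the 7 members with at least 50 UMIs over both libraries, 4 were at least 2-fold lower, where 19.2% of all 14340 genes were, and 2 at least 2-fold higher, where 2.13% were. Aqp3 was at 0.524 under TMM scaling and 0.519 among kept cells, so in those settings 3 were 2-fold lower. Class shares moved alongside. Principal cells were 1.17, 0.0477 and 0.966% of kept cells and proximal tubule cells 46.2, 84.4 and 26.9%.

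Within the proximal tubule the 15 min ratios were 1.31 for Aqp1 (1.23 to 1.38), 1.26 for Aqp3 (1.09 to 1.46), 1.32 for Aqp7 (1.07 to 1.63) and 1.46 for Aqp11 (1.35 to 1.58). Aqp4, with 18 and 45 UMIs, was at 0.817 (0.463 to 1.499), an interval that includes 1. None of the 5 members tested there reached a 2-fold difference, which 1.71% of 10873 genes did. The median log2 ratio of the members was 0.38, where the median of all genes was -0.20. So 4 of the 5 levels lay above the control. The mitochondrial share, which enters every CPM, was highest in this library, and its part was not tested. The mix of segments also differed between libraries. S1 and S3 cells numbered 798 and 1549 in the control, 2609 and 4302 at 15 min and 1253 and 1143 at 60 min. The part of this mix in the ratios was not tested.

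At 60 min the kidney ratios lay closer to 1. They were 0.905 for Aqp2 (0.877 to 0.934), 1.08 for Aqp3 (1.03 to 1.13), 1.26 for Aqp1, 1.29 for Aqp6, 1.35 for Aqp7 and 0.972 for Aqp11. Aqp4 at 0.496 (0.421 to 0.585) was the only one of 7 at least 2-fold lower, against 0.576% of 15106 genes, and it missed that mark when mitochondrial genes were left out of the totals. No member was 2-fold higher, where 7.29% of genes were. In the proximal tubule 0 of 5 members reached 2-fold against 4.2% of genes, with Aqp7 at 1.59 (1.25 to 2.03), Aqp1 at 1.24 and Aqp11 at 1.14 (1.03 to 1.26). In principal cells Aqp4 alone of 3 did, against 1.58%. In the connecting tubule Aqp2 was at 0.740 and Aqp3 at 0.711 times the control. The sign for Aqp3 in whole libraries turned to 0.946 under TMM scaling, and that for Aqp6 to 0.709 among kept cells.

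**Figure D5:**
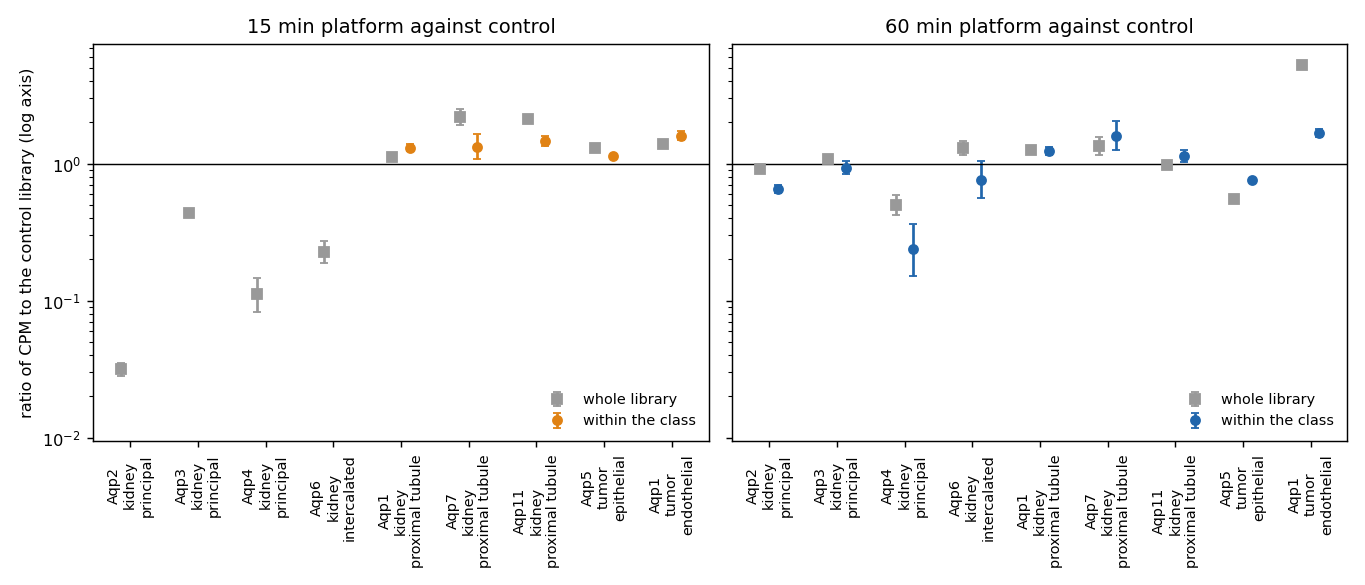
Ratio of each platform library to the control (log axis, line at 1) for 9 pairs of aquaporin and class, as whole libraries (grey squares) and within the class named under each gene (coloured circles), with exact 95% bars that cover counting error only. At 15 min no circle is drawn for principal and intercalated cells, which were under 20 there; among the ratios drawn, which leave out tumor Aqp2 and Aqp3, kidney Aqp2 sits lowest at 0.0315 and tumor Aqp1 highest at 5.22.

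In the tumor Aqp5 was at 849, 1104 and 469 CPM, Aqp1 at 19.99, 27.8 and 104, Aqp2 at 0.719, 1.06 and 9.55, Aqp3 at 1.34, 0.178 and 0.299 and Aqp11 at 2.002, 2.79 and 1.91. At 15 min only Aqp3, with 121 UMIs in the control and 18 at 15 min, was past 2-fold, at 0.133 (0.0762 to 0.219), 1 of 5 members against 2.79% of 15027 genes lower. No member was 2-fold higher, where 2.23% of genes were. Aqp5 was at 1.30 and Aqp1 at 1.39 times the control.

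At 60 min Aqp1 was 5.22 times (4.97 to 5.50) and Aqp2 13.3 times (10.3 to 17.3) the control, 2 of 5 members against 10.2% of 15199 genes higher. Among kept cells the Aqp2 ratio was 28.1 (15.5 to 56.8). Aqp3 was lower at 0.223 (0.144 to 0.337), where 2.16% of genes were, and Aqp5 was at 0.553 (0.546 to 0.559). Cell shares moved alongside these values. Epithelial cells were 59.3, 67.5 and 41.3% of kept cells, endothelial cells 5.26, 4.12 and 12.5% and fibroblasts 0.593, 1.10 and 4.81%. Fewer cells of a class and less RNA per cell cannot be told apart in a whole library.

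Within tumor epithelial cells Aqp5 was at 1.13 times the control at 15 min (1.11 to 1.15) and 0.753 at 60 min (0.740 to 0.766), and Aqp11 was at 1.45 at 15 min (1.08 to 1.96). Aqp3 was the 1 of 3 members past 2-fold in both intervals, against 3.91% of genes at 15 min and 2.72% at 60 min. In the endothelium 0 of 2 members reached 2-fold at 15 min, against 2.52% of genes. At 60 min Aqp5, there at its background level, was at 0.238, 1 of 2 against 2.82%. The platform ratios of Aqp1 in endothelial cells, 1.60 and 1.67, were therefore below the whole-library ratio of 5.22 at 60 min and above that of 1.39 at 15 min.

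The genes whose level across classes was most like that of a member were found by Pearson's r of log2(CPM + 1), over 19 kidney classes and 12123 genes or 15 tumor classes and 12754 genes. The classes share libraries and depth, and r is a description. In kidney Aqp2 was most like Hsd11b2 (0.961), Scnn1g (0.961) and Scnn1b (0.946), all markers of the gates. Aqp3 came nearest to Rhbg (0.890), Spink8 (0.889) and Scnn1b (0.870), also markers, and Aqp4 to Kcne1 (0.845), Scnn1g (0.819) and Tbck (0.795). For Aqp6 they were the proton pump subunits Atp6v0d2 (0.933), Atp6v1h (0.913) and Atp6v1g3 (0.908), of which Atp6v0d2 and Atp6v1g3 are markers. Aqp1 was most like Lama3 (0.892), P4ha2 (0.838) and Mat2a (0.805), Aqp7 like Bdnf (0.938), Vwce (0.917) and Slc10a5 (0.905), and Aqp11 like Pllp (0.921), AC110166.2 (0.837) and Cfb (0.832).

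In the tumor Aqp1 was most like the endothelial genes Ptprb (0.965), Thsd7a (0.964) and Fgd5 (0.960), and Aqp2 like Lgi2 (0.996), Msc (0.986) and Tspan11 (0.985). Aqp5 was most like Faim2 (0.990), Kif21a (0.977) and Echdc2 (0.973), and Aqp11 like Fam120c (0.933), Npr3 (0.923) and D930048N14Rik (0.922). Faim2 is the gene before Aqp2 on chromosome 15. On GRCm38 it lies at chr15:99497012-99528165 on the minus strand, followed on the plus strand by Aqp2 (chr15:99579055-99584547), Aqp5 (chr15:99590782-99594829) and Aqp6 (chr15:99601400-99605477), with 50889, 6234 and 6570 bases between neighbours. In tumor epithelial cells Faim2 was at 16.6 CPM beside 1116 for Aqp5, 0.307 for Aqp2 and 0.317 for Aqp6. In kidney principal cells Faim2 had 0 UMIs and Aqp5 1, beside 5479 CPM for Aqp2. Neighbouring genes of this cluster were thus high in different cells of kidney and tumor. Aqp3 (chr4:41092722-41098183) and Aqp7 (chr4:41033074-41048139), both on the minus strand, are the other close pair, with 44582 bases between them, and were highest in principal cells and in the proximal tubule.

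Genes that act with the channels were read from lists. Of 16 genes of vasopressin signalling and channel trafficking, 1 (6.25%) was highest in principal cells, where 6.89% of 14502 genes were. It was Avpr2, at 289 CPM (251 to 330) in principal cells and 124 in the connecting tubule, the classes in which Aqp2 was highest. The adenylyl cyclase Adcy6 was at 91.5 CPM in the thin limb and 73.9 in principal cells. Of 8 genes of urea transport and osmolyte handling, 3 (37.5%) were highest in the thin limb and 3 in the vasa recta endothelium, the classes with the most Aqp1, where 10.2 and 7.43% of all genes were. The urea transporter Slc14a1 at 792 CPM in vasa recta cells and, in the thin limb, the aldose reductase Akr1b3 at 1661 and the urea transporter Slc14a2 at 87.8 are gate markers, placed there by the choice of cells. Of the 5 genes that are no gate marker, 2 were highest in vasa recta cells, the taurine carrier Slc6a6 at 712 CPM and Nfat5, a factor of the response to salt, at 335. Next came the thin limb for Slc6a6, at 505 CPM, and the whole endothelium for Nfat5, at 269. The thin limb kept 1, the betaine carrier Slc6a12, at 10.98 CPM (2.26 to 32.1).

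Of 5 genes of glycerol handling, the glycerol kinase gene Gk was highest in S3 cells at 330 CPM and Gpd1, glycerol phosphate dehydrogenase, in S1 cells at 160.1 CPM. Of 14502 kidney genes, 4.93% were highest in S3 and 4.40% in S1 cells. Both classes carried Aqp7, and Aqp3 at a level far below that of principal cells. In principal cells Gk was at 9.58 CPM and Gpd1 at 6.84. The lipase genes Mgll (334 CPM) and Lipe (36.8) were highest in endothelium, and Pnpla2 (193) in intercalated type A cells, where 8.14 and 8.84% of genes were. In the tumor 7 of 15 tested vasopressin genes (46.7%) were highest in pericytes, where 10.6% of 14943 genes were. They included the receptor Avpr1a at 71.7 CPM and Adcy6 at 86.8, in cells in which the members themselves were at 10.1 CPM (Aqp5) or less. In tumor endothelium, with the most Aqp1, Mgll was at 247 CPM and Lipe at 23.5.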

How the data were processed

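Mouse kidney and mammary tumor cells were profiled in droplets, 3 libraries per tissue. The authors aligned reads to mm10 with Cell Ranger (3.1.0) and combined libraries within each tissue by aggregation, a step that lowers the deeper libraries to a common read depth. The counts they deposited are unfiltered integer UMIs for every gene in every cell. UMIs lost in aggregation are not seen here, and the tissues were aggregated apart. Builds and tools were taken from the submitters' processing notes and the study's methods.

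From these counts, cells with 200 to 3000 (kidney) or 4000 (tumor) genes and at most 50 or 25% mitochondrial UMIs were kept. A cell entered a class when at least 3 markers of its list had a UMI. Intercalated cells were instead split into type A and type B by the type list with more detected markers. Cells that passed several unrelated gates were left out of classes, which with the upper gene limit was the only treatment of doublets. Tumor epithelial subtypes were not exclusive, and a cell could count in several. Whole-library levels used all deposited cells. The members and all lists were chosen with earlier results of these data known. All 8 members are named, with the 3 genes most like each and the list members highest in the classes where aquaporins were highest. Ratios and 2-fold shares used genes with at least 50 UMIs over both libraries. Shares of cells were also computed on cells thinned to 1000 UMIs. Where a count was 0, 3 counts gave the limit. Steps were checked on simulated counts.

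Alternatives were gates of 1 marker fewer or more, Leiden clusters made without aquaporins (resolution 2, 30 components), other limits on cells, nuclear totals, edgeR TMM scaling and other thinning depths. Coordinates are from GENCODE on GRCm38, and promoters from RefSeq. Software comprised Python 3.11.15, numpy 2.4.6, scipy 1.17.1, scanpy 1.11.5, leidenalg 0.10.2, R 4.3.3 and edgeR 4.0.16.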

Additional observations from a re-analysis of the deposited data

Results flagged for a closer look

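For a pair of members the kidney and tumor libraries moved in opposite directions against their own controls. The difference between the tissues was not tested, since each condition had 1 library. Aqp2 in whole libraries was at 0.0315 times the control in kidney and 1.47 times in the tumor at 15 min, and at 0.905 and 13.3 times at 60 min. Aqp3 was at 1.08 times the control in kidney and 0.223 times in the tumor at 60 min. The kidney Aqp3 ratio turned to 0.946 with TMM factors and 0.918 among kept cells, so under those settings both tissues lay below their controls. The tumor values rest on 65 Aqp2 and 121 Aqp3 UMIs in the control library.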

How the results depend on the processing

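The class with the highest level stayed the same for 7 of 7 kidney and 4 of 4 tumor members with at least 200 UMIs under every gate and every limit on cells, and for 6 of 7 and 4 of 4 with clusters. The exception was kidney Aqp1, highest in the thin limb among the classes ranked here, for which no thin limb cluster formed. This ranking used the broad classes. It did not cover subdivisions such as the vasa recta endothelium, intercalated type A cells, S1 and S3 cells or tumor epithelial subtypes. No paired analysis was possible because each condition had 1 library. With nuclear genes as totals, 0 kidney members were past 2-fold at 60 min, where Aqp4 had been. Without the filter on low counts, 33.5% (15 min) and 19.0% (60 min) of kidney genes and 17.7 and 24.0% of tumor genes were past 2-fold in either direction. At a mitochondrial limit of 25%, Aqp4 in principal cells was at 254 CPM and Aqp2 in connecting tubule and principal cells together at 4721, where it had been 2879. Aqp1 in vasa recta cells was at 3588 with a gate of 1 marker fewer and 8199 with 1 more, and tumor fibroblast Aqp2 at 134 with 1 fewer. Among kept cells the tumor Aqp2 ratio at 60 min was 28.1. With TMM factors the kidney 15 min ratio of Aqp3 was 0.524, no longer past 2-fold. Shares of cells with a UMI depended on depth, as for tumor epithelial Aqp5 at 29.2, 41.7, 57.5 and 78.4% for 500, 1000, 2000 and all UMIs. Classes under 20 cells in a library allowed no comparison. In kidney, 53.0% of Aqp1, 64.2% of Aqp2 and 77.3% of Aqp6 UMIs lay in cells above the gene limit.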

Other observations

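Of the other aquaporin genes of the annotation, Aqp9, a glycerol and urea channel, was highest in granulocytes of both tissues, at 25.6 CPM (8.32 to 59.8, 5 UMIs) in kidney and 25.5 CPM (15.8 to 38.9, 21 UMIs) in the tumor. Aqp8 had 220 UMIs in kept kidney cells, 210 of them in the proximal tubule at 2.29 CPM (1.99 to 2.62), with S3 at 3.00 and S1 at 1.35. In the tumor it had 0 UMIs in kept cells. In proximal tubule cells Aqp8 was at 1.37 CPM in the control and 2.66 at 15 min, a ratio of 1.93 (1.26 to 3.09).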
